A study of Mus musculus with 4 samples.

Results

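The R-spondins, their LGR receptors and the E3 ligases they act on were followed in the newborn mouse lung. The 9 genes, Rspo1, Rspo2, Rspo3, Rspo4, Lgr4, Lgr5, Lgr6, Znrf3 and Rnf43, were chosen by symbol from the 48709 genes of the deposited table of normalized counts, which has 1 row for each of them. The left lung lobe of C57BL/6 mice was sampled at postnatal day 1, without treatment. There were 2 mice of the genotype RykSL/SL, called mutant here, and 2 wild-type mice, with 1 mRNA library from each mouse. Ryk encodes a transmembrane receptor for WNT ligands. Sample descriptions name the mutant libraries KO_1 and KO_2. Beyond that, the labels do not describe how the SL allele changes the gene or in which cells it acts. They give neither sex nor litter. The comparison asks how transcript levels in the newborn lung differ between the genotypes.

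R-spondins are secreted proteins that raise the response of a cell to WNT ligands. ZNRF3 and RNF43 are membrane E3 ubiquitin ligases that mark Frizzled receptors and LRP co-receptors for removal from the cell surface. An R-spondin binds a ligase and an LGR receptor together, the ligase is cleared from the membrane, and Frizzled receptors accumulate. Znrf3, Rnf43 and Lgr5 are also known targets of beta-catenin, so the ligases form a negative feedback. In the lung, R-spondin and LGR genes are known mainly from mesenchymal, mesothelial and endothelial cells, and Rspo2 is required in the mouse for normal lung and limb growth.

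The normalized values summed to between 18658239 and 19987634 per library. Lung identity was plain in all 4 libraries: the surfactant gene Sftpc stood between 135559 and 220945 and the lung epithelial factor gene Nkx2-1 between 4126 and 4919. Ryk had 2757 and 2203 normalized counts in mutant lungs, against 2528 and 2525 in wild-type lungs, so its groups overlapped. Mutant replicate 1 stood apart in sex-linked RNA, with 24836 normalized counts of Xist against 7 to 23 in the other lungs, and 56 of the Y-linked Ddx3y against 2197 to 3769. The mutant lungs were also less alike than the wild-type lungs, with an SD over genes of the log2 difference of 0.60 against 0.314. By the same measure mutant replicate 2 was the library farthest from the wild-type lungs (0.757 and 0.744), while mutant replicate 1 was about as far from them (0.61 and 0.575) as from mutant replicate 2. Rspo2, Rspo4, Lgr5, Lgr6 and Rnf43 each had their lowest value in mutant replicate 2. Each fold change below was therefore also computed without each lung. Sex and genotype cannot be told apart in mutant replicate 1, and in whole-lobe RNA fewer cells of a type and less RNA per cell cannot be told apart either.

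Of the 9 genes, Rspo2 fell in the mutant and the other 8 did not pass the test. Genes were tested two-sided with limma (log2(value + 1), with a trend of the variance on the mean). Genes with a mean under 10 were left out, 18436 entered, and a gene was called at a Benjamini-Hochberg adjusted p under 0.05. All 9 genes passed that filter. Over all tested genes 2.39% were called in either direction, 0.917% lower and 1.47% higher. At an unadjusted p under 0.05 there were 5 of the 9 genes, 4 lower and 1 higher, where the shares of all tested genes were 20.1% in either direction, 9.64% lower and 10.4% higher. The mutant and wild-type lungs did not overlap in 6 of the 9, with 4 lower and 2 higher in the mutant. Across all tested genes 52.6% had groups that did not overlap (26.9% lower, 25.7% higher), so that count is near the background. The median log2 fold change of the 9 genes, mutant minus wild type, was -0.52, beside -0.02 over all tested genes. With 2 lungs against 2, an exact permutation test of a single value cannot go below p = 0.333.

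**Figure D1:**
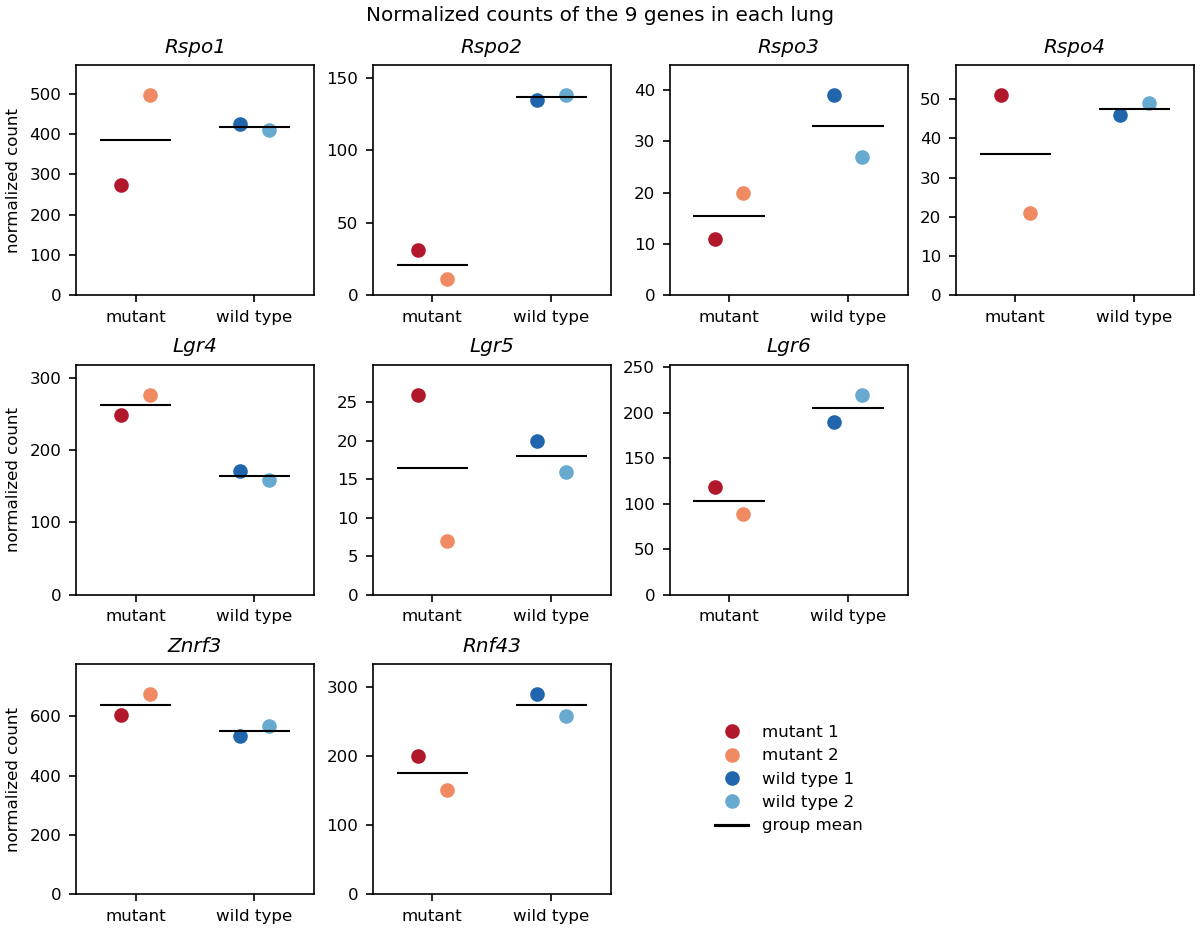
Normalized count (vertical axes, each from 0) of the 9 genes in each lung, with points for single lungs and black lines for group means. Rspo2 stood at 31 and 11 in mutant lungs, against 135 and 138 in wild-type lungs, while Lgr4 was the receptor gene with both mutant lungs above both wild-type lungs.

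Among the ligand genes, Rspo2 (ENSMUSG00000051920, chromosome 15, positions 43020811 to 43170818, minus strand, GRCm38, protein coding) had the largest log2 fold change of the 9. Normalized counts read 31 and 11 for mutant replicates 1 and 2, against 135 and 138 for wild-type replicates 1 and 2. Both mutant lungs were far below both wild-type lungs, which lay close together. The mean was 21 ± 14.1 (SD, n = 2) in the mutant and 136.5 ± 2.12 (SD, n = 2) in the wild type, so the mutant mean was 15.4% of the wild-type mean. Mutant replicate 1 stood at 22.7% and mutant replicate 2 at 8.06% of that mean. The log2 fold change was -2.81 (standard error 0.47), with a 95% interval of -3.97 to -1.65 (limma, adjusted p = 0.0452). None of the 50-base sequences of its GENCODE transcripts occurs in transcripts of other genes, and no exon of another gene overlaps its exons. That share was at most 0.647% in the other 8 genes (Lgr5).

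With single lungs left out, the Rspo2 log2 fold change lay between -3.52 and -2.10, but the call did not hold in all of these fits. Since its groups did not overlap, leaving out any lung could not reverse the direction. The same is true of every gene with groups that do not overlap, among them Lgr4 and Rnf43. Over 12 alternative settings the limma adjusted p ran from 0.00496 to 0.889, and 6 of the 12 kept it under the threshold. Leaving out mutant replicate 1, which carried the high Xist signal, gave a log2 fold change of -3.52, and leaving out mutant replicate 2 gave -2.10. With a single wild-type lung left it was -2.83 or -2.79. The call was lost without mutant replicate 2 and without either wild-type lung. Fits with 1 mutant lung take their variance from the 2 wild-type lungs alone, and fits with 1 wild-type lung from the 2 mutant lungs. Keeping or losing the call there does not measure the spread within both genotypes. With all lungs the adjusted p was 0.057 after quantile normalization, 0.0965 without the variance trend and 0.24 with no filter on low values (limma).

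Several lists of cell type markers had summed levels that, like Rspo2, did not overlap between the genotypes. Across all tested genes 52.6% had groups that did not overlap, so this is not particular to Rspo2 or to these lists. The lung mesenchyme list summed to 33564 and 31329 in mutant lungs, against 38987 and 39069 in wild-type lungs. Of its 9 genes none was called lower and 4 were lower at an unadjusted p under 0.05, while Pdgfra, a fibroblast receptor gene, rose (limma, adjusted p = 0.0487). The cardiac muscle list summed to 3320 and 3219 against 6436 and 6354, and 2 of its 5 tested genes fell, the atrial myosin light chain genes Myl7 and Myl4 (limma, adjusted p = 0.0109 and 0.0314). The B and T lymphocyte list summed to 200 and 146 against 456 and 427. Its T cell genes had means under 10 and were not tested, so the list speaks for B cell genes only. Of its 3 tested genes, all B cell genes, Ms4a1 fell, at 37 and 32 against 158 and 144 (limma, adjusted p = 0.0171). The alveolar type 1 and type 2 lists also had lower sums in both mutant lungs, with none of their genes called. The myofibroblast, lipofibroblast and squamous epithelium lists had higher sums in both. Such sums rest on the most abundant genes: Eln, in the myofibroblast list, had 91626 and 72294 normalized counts against 40727 and 46824. The median log2 fold change was 0.01 in the myofibroblast list and -0.03 in the lipofibroblast list. In the lipofibroblast list Inmt and Lpl rose and Plin2 fell (limma, adjusted p = 0.0152, 0.0475 and 0.0314). No list had a defining marker at 0 in all lungs except squamous epithelium (Sprr3). Their part in the Rspo2 values was not tested.

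Rspo3, a ligand known from endothelial and mesenchymal cells (chromosome 10, positions 29453109 to 29535867, minus strand), was low throughout, at 11 and 20 normalized counts in mutant lungs, against 39 and 27 in wild-type lungs. The groups did not overlap, but the values rest on few reads and the wild-type lungs differed from each other by 0.51 on the log2 scale. Its log2 fold change was -1.08 with a 95% interval of -2.10 to -0.05, and it did not pass the test (limma, adjusted p = 0.232). Exons of Gm48159 on the opposite strand overlap 404 bases of its exons. No source used here states the strand setting of the counting, so reads of the overlap cannot be assigned with certainty.

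Rspo1, a ligand known from mesothelium and other mesenchyme (chromosome 4, positions 124986430 to 125009099, plus strand), split the mutant lungs. Mutant replicate 1 had 274 normalized counts and mutant replicate 2 had 496, against 425 and 410 in wild-type lungs. The wild-type lungs lay between the mutant lungs, which differed by 0.85 on the log2 scale. Its log2 fold change was -0.18 (95% interval -0.88 to 0.52, limma, adjusted p = 0.769), and it was 0.25 without mutant replicate 1 and -0.61 without mutant replicate 2. The summed level of mesothelial markers moved with it, though not every single marker did. The summed level of the 7 listed markers (Msln, Upk3b, Wt1, Lrrn4, Upk1b, Muc16 and Gpm6a) came to 10586 in mutant replicate 1, 22131 in mutant replicate 2, and 16578 and 14286 in wild-type lungs, the same order of lungs as for Rspo1. The sum rested mostly on Msln, at 6948 and 14653 in mutant lungs, against 9740 and 8869 in wild-type lungs. Of the 7 markers 6 were lowest in mutant replicate 1 and 4 were highest in mutant replicate 2. Upk3b, Lrrn4 and Gpm6a were highest in wild-type replicate 1, and Upk1b was lowest in wild-type replicate 2. The summed level of the airway epithelium list was also lowest in mutant replicate 1 (75791) and highest in mutant replicate 2 (88691). None of the 7 mesothelial markers was at 0 in all lungs and none was called between the genotypes. Their part in the Rspo1 values was not tested.

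Rspo4, the ligand known for its role in nail development (chromosome 2, positions 151842927 to 151874668, plus strand), had 51 and 21 normalized counts in mutant lungs, against 46 and 49 in wild-type lungs. Mutant replicate 1 was at the wild-type level and mutant replicate 2 below it. The log2 fold change was -0.52 (95% interval -1.60 to 0.56, limma, adjusted p = 0.559), and without mutant replicate 2 it was 0.10.

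**Figure D2:**
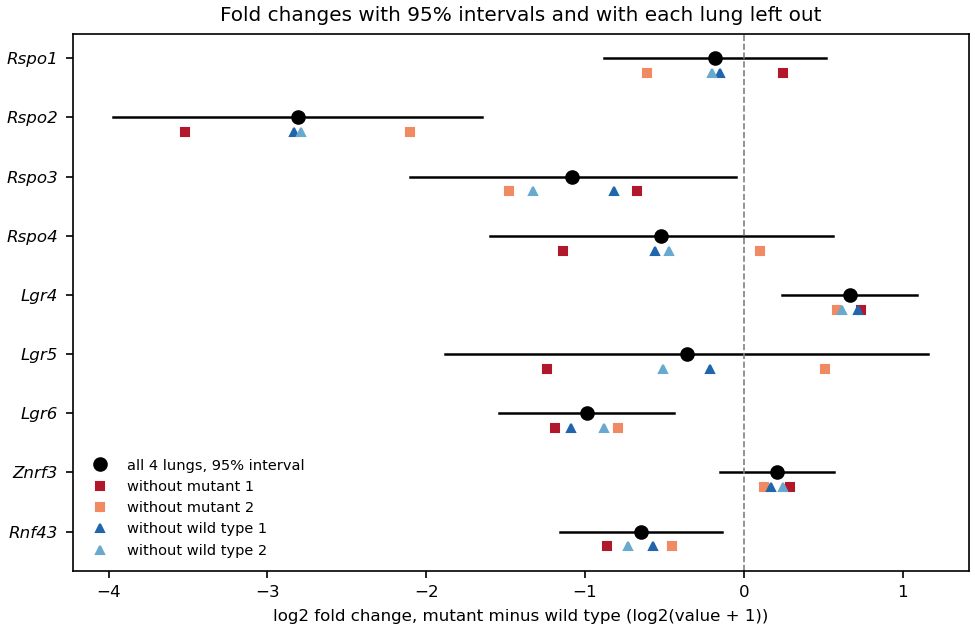
Difference of mutant from wild type in log2(value + 1) (horizontal axis) for each of the 9 genes, with black points and 95% intervals from all 4 lungs and coloured points with single lungs left out. Rspo2, whose groups did not overlap, lay between -3.52 and -2.10. Rspo1, Rspo4 and Lgr5, whose groups overlapped, lay on both sides of 0 depending on which mutant lung was left out.

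Of the receptor genes, Lgr4 was higher and Lgr6 lower in both mutant lungs, and neither passed the test. Lgr4 (ENSMUSG00000050199, chromosome 2, positions 109917647 to 110014257, plus strand), the broadly expressed receptor, had 249 and 277 normalized counts in mutant lungs, against 171 and 159 in wild-type lungs. The lungs of each genotype lay close together and the groups were apart. The mutant mean of 263.0 ± 19.8 (SD, n = 2) was 1.59 times the wild-type mean of 165.0 ± 8.49 (SD, n = 2). Its log2 fold change was 0.67 (standard error 0.17), with a 95% interval of 0.24 to 1.09 (limma, adjusted p = 0.121). With any of the lungs left out it lay between 0.59 and 0.74.

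Lgr6 (ENSMUSG00000042793, chromosome 1, positions 134983301 to 135105276, minus strand), a receptor known in the lung from airway smooth muscle cells, had 118 and 89 normalized counts in the mutant lungs against 190 and 220. Both mutant lungs lay below both wild-type lungs, at a mean of 103.5 ± 20.5 (SD, n = 2) against 205.0 ± 21.2 (SD, n = 2). The log2 fold change was -0.99 (standard error 0.22), with a 95% interval of -1.54 to -0.44 (limma, adjusted p = 0.0903). Without mutant replicate 1, Lgr6 passed, with -1.19 (limma, adjusted p = 0.0478). In that fit 2 of the 9 genes were called, Rspo2 and Lgr6, beside 12.9% of all tested genes and 6.43% called lower. The summed level of 7 smooth muscle markers (Acta2, Myh11, Actg2, Des, Cnn1, Lmod1 and Tagln) did not have the Lgr6 order. It was 10709 in mutant replicate 1, above the wild-type values of 8537 and 7289, and 4000 in mutant replicate 2. The lung mesenchyme list did have that order, at 33564 and 31329 in mutant lungs, against 38987 and 39069 in wild-type lungs. The part of either list in the Lgr6 values was not tested.

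Lgr5, the receptor known as a stem cell marker in the intestine (ENSMUSG00000020140, chromosome 10, positions 115450311 to 115587780, minus strand), was barely detected. Normalized counts read 26 and 7 in mutant lungs, against 20 and 16 in wild-type lungs. Mutant replicate 1 was the highest lung and mutant replicate 2 the lowest. The log2 fold change of -0.36 had a 95% interval of -1.88 to 1.16 (limma, adjusted p = 0.788) and became 0.51 without mutant replicate 2. The mutant lungs differed from each other by 1.75 on the log2 scale, more than the genotype means did. All 7 smooth muscle markers were likewise highest in mutant replicate 1 and lowest in mutant replicate 2, and the order of their summed level over the 4 lungs was that of Lgr5. Rspo4 shared the same highest and lowest lungs. The order of Lgr5 was not particular to the smooth muscle list. The Schwann cell list had it too, at 632 and 454 in mutant lungs, against 532 and 517 in wild-type lungs. The blood endothelium list also had its highest sum in mutant replicate 1 (36436) and its lowest in mutant replicate 2 (22992). None of the smooth muscle markers was at 0 in all lungs or called, and their part in the Lgr5 and Rspo4 values was not tested.

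**Figure D3:**
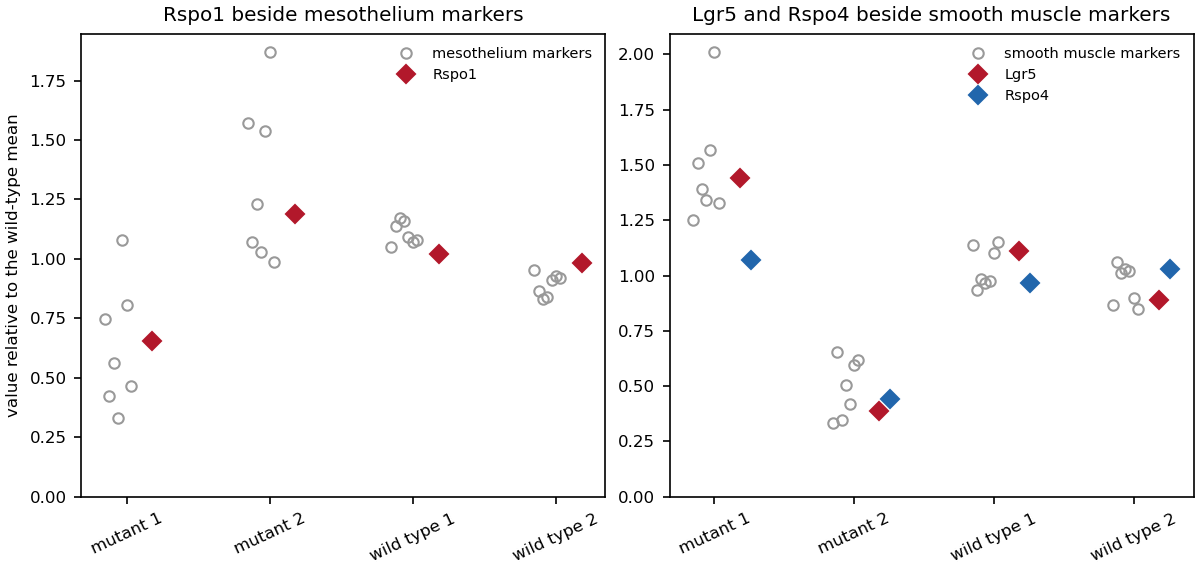
Values of Rspo1 beside 7 mesothelial markers (left) and of Lgr5 and Rspo4 beside 7 smooth muscle markers (right), each divided by its own wild-type mean (vertical axes), by lung (horizontal axes). Rspo1 stood at 0.656 and 1.19 of the wild-type mean in mutant replicates 1 and 2, and Lgr5 at 1.44 and 0.389.

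The upstream sequences of the receptors with opposite directions are shown here, since Lgr4 and Lgr6 differed most among the receptor genes. They are the 250 bases before the RefSeq start (GRCm38.p6), read 5′ to 3′ on the strand of the gene, chr2:109917397-109917646 on the plus strand for Lgr4 and chr1:135105277-135105526 on the minus strand for Lgr6. Capitals mark matches to the motifs searched.
Lgr4: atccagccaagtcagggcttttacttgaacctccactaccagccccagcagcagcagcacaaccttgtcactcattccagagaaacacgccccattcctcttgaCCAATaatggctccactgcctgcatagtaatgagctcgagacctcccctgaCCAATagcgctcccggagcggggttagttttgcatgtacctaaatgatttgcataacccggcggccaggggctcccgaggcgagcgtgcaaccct
Lgr6: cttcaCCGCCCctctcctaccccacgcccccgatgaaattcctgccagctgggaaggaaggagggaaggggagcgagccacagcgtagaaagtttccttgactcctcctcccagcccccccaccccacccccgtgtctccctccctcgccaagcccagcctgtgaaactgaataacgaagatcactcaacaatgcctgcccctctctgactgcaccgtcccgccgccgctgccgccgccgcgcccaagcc

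The motifs were the TCF/LEF core CTTTGAT, the CCAAT box CCAAT, the GC box GGGCGG and the TATA box TATAAA, on both strands, chosen with the sequences in view. The Lgr4 window held 2 CCAAT boxes, a motif found in 33.8% of 32851 RefSeq windows of this length, and the Lgr6 window held 1 GC box, found in 32.7%. GC content was 55.6% for Lgr4 and 65.2% for Lgr6, where the median window had 52.4%. RefSeq windows were matched for 5 of the 9 genes, Rspo1, Rspo4, Lgr4, Lgr6 and Rnf43, the last with 2 starts. The letters CTTTGAT occurred in none of their windows and in 3.21% of all windows.

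The ligase genes were detected well in all lungs and did not pass the test. Znrf3 (ENSMUSG00000041961, chromosome 11, positions 5276324 to 5444847, minus strand) had 604 and 675 normalized counts in mutant lungs, against 535 and 569 in wild-type lungs. Both mutant lungs were slightly above both wild-type lungs, and the log2 fold change was 0.21 with a 95% interval of -0.15 to 0.57 (limma, adjusted p = 0.472). Rnf43 (ENSMUSG00000034177, chromosome 11, positions 87662722 to 87735539, plus strand) went the other way, with 201 and 151 normalized counts in the mutant lungs against 290 and 259. Both mutant lungs lay below both wild-type lungs, at a mean of 176.0 ± 35.4 (SD, n = 2) against 274.5 ± 21.9 (SD, n = 2). The log2 fold change was -0.65 with a 95% interval of -1.16 to -0.14 (limma, adjusted p = 0.171), and it lay between -0.86 and -0.45 with any of the lungs left out. Both are known feedback targets. Their values differed in opposite directions, and neither passed the test.

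Set per kilobase of exon, which allows genes of different length to be compared, Rspo1 was the most abundant ligand transcript and Znrf3 the more abundant ligase. In the wild type the level per kilobase of exon was 215 ± 5.47 (SD, n = 2) for Rspo1, 69.9 ± 3.05 for Znrf3 and 41.9 ± 3.34 for Rnf43. Lgr6 followed at 29.9 ± 3.10, Lgr4 at 28.0 ± 1.44 and Rspo2 at 26.7 ± 0.415. The wild-type lungs of Lgr6 (27.7 and 32.1 per kilobase) and Lgr4 (29.1 and 27.0) overlapped, so these 2 receptor genes did not differ beyond their spread. Rspo4 stood at 20.0 ± 0.895, Rspo3 at 10.7 ± 2.75 and Lgr5 at 1.75 ± 0.276. In the mutant the order was Rspo1 at 199 ± 81.0 per kilobase, Znrf3 at 81.0 ± 6.36, Lgr4 at 44.7 ± 3.36, and Rnf43 at 26.8 ± 5.39. Below these came Rspo4 at 15.2 ± 8.95, Lgr6 at 15.1 ± 2.99, Rspo3 at 5.02 ± 2.06, Rspo2 at 4.11 ± 2.77 and Lgr5 at 1.61 ± 1.31. The mutant lungs of Rspo2 overlapped those of Rspo3. By the longest transcript instead of all exons, the wild-type levels of Rspo2, Rnf43 and Lgr5 were 40.9, 63.7 and 3.76 per kilobase, which puts Rspo2 above Lgr4 (32.6) and Lgr6 (30.7). The mutant order also turned for neighbouring genes by that length, with Rspo2 at 6.29 above Rspo3 at 5.02 and Lgr6 at 15.5 above Rspo4 at 15.2, so neither of these pairs has a settled order.

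Within each family the balance of members differed between the genotypes more than the sum did for receptors and ligases. The summed LGR level per kilobase was 62.1 and 60.7 in mutant lungs, against 58.7 and 60.7 in wild-type lungs, so the groups overlapped in the sum. By the longest transcript they did not, at 72.3 and 69.5 against 66.4 and 67.7. Lgr4 made up 68.2% and 77.5% of it in mutant lungs, against 49.5% and 44.5% in wild-type lungs. Its ratio to Lgr6 per kilobase was 2.46 and 3.62 in mutant lungs, against 1.05 and 0.842. The summed ligase level per kilobase was 107 and 109 against 112 and 112, and Znrf3 made up 71.4% and 78.8% of it against 60.5% and 64.6%. The summed R-spondin level per kilobase was 173 and 273 in mutant lungs, against 278 and 268 in wild-type lungs, so the groups overlapped. By the longest transcript they did not, at 184 and 289 against 304 and 294. Rspo2 made up 3.52% and 0.787% of that sum in mutant lungs, against 9.51% and 10.1%. These shares and ratios were set up after the values were seen and are given as a description.

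**Figure D4:**
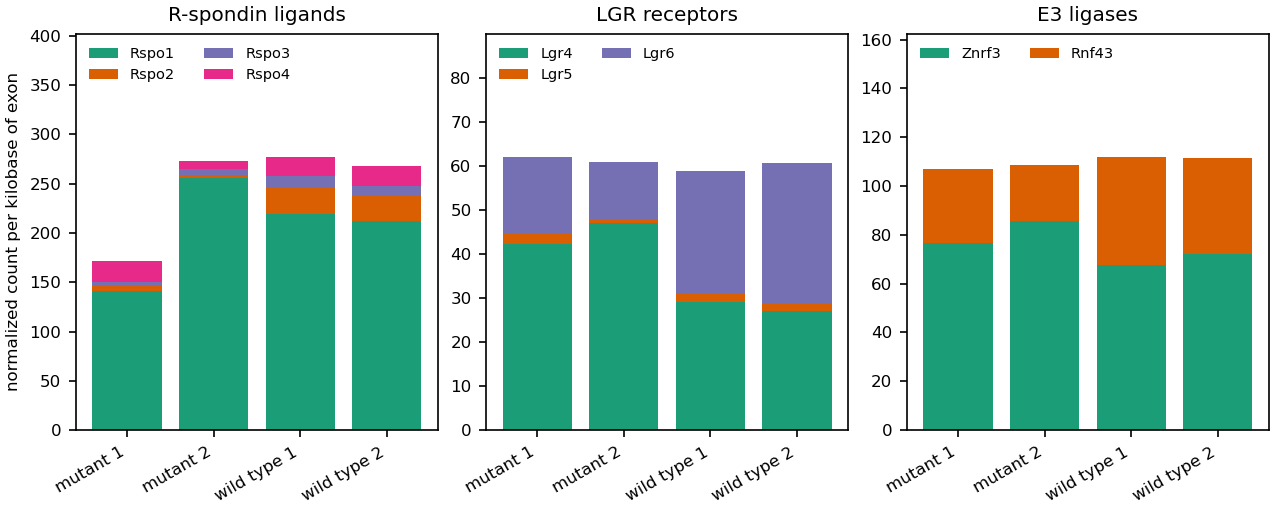
Normalized count per kilobase of exon (vertical axes, from 0), stacked by gene, for the ligands (left), receptors (middle) and ligases (right) in each lung. The receptor sums by exon length lie between 58.7 and 62.1, while the Lgr6 part is smaller in both mutant lungs.

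Calls among other genes of the pathway are set beside the shares of all tested genes, 0.917% called lower and 1.47% called higher. At an unadjusted p under 0.05 those shares were 9.64% lower and 10.4% higher (limma). Of 19 listed WNT ligand genes, 11 were tested, 2 fell and none rose (4 lower at an unadjusted p under 0.05), with a median log2 fold change of -0.30. The genes were Wnt5a, a mesenchymal ligand of mostly beta-catenin-independent signalling, at 481 and 399 normalized counts against 1188 and 1116, and Wnt7a, an epithelial ligand, at 103 and 86 against 278 and 279. Of 15 tested WNT receptor and co-receptor genes, from which the ligases take their substrates, none was called (limma, 4 lower and 3 higher at an unadjusted p under 0.05), and the median was -0.19. The smallest p was that of the Frizzled gene Fzd1, at 884 and 927 against 1609 and 1432 (log2 fold change -0.75, limma, adjusted p = 0.0595). Fzd1 passed after scaling to library totals (limma, adjusted p = 0.0477) and after quantile normalization (limma, adjusted p = 0.0467). None of the 5 Dishevelled and ligase regulator genes was called, nor at an unadjusted p under 0.05 (limma), and the smallest p was that of Dvl3, which encodes an adaptor that brings the ligases to Frizzled (0.38, adjusted p = 0.28).

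Heparan sulfate carriers, the BMP receptor gene Bmpr1a and Iqgap1, listed as known or possible other partners of R-spondins or LGR receptors, had 0 of 11 tested genes called (limma, 2 lower at an unadjusted p under 0.05) and a median of -0.25. Gpc2, a glypican gene, had the smallest p, at 19 and 23 normalized counts against 39 and 55 (limma, adjusted p = 0.148). The list of beta-catenin targets also holds WNT regulator genes such as Kremen1 and Dkk3, so its counts do not measure beta-catenin output alone. Of its 15 tested genes, called targets here, 1 fell and none rose, with a median of -0.38. At an unadjusted p under 0.05 there were 6 lower and 1 higher (limma, beside 9.64% and 10.4% of all tested genes). The gene that fell was Wif1, a secreted WNT inhibitor gene, at 35 and 61 normalized counts against 175 and 171 (log2 fold change -1.88, limma, adjusted p = 0.0417). The groups overlapped for Axin2, the widely used target, which was singled out with its values in view: 693 and 947 normalized counts against 727 and 731. Among the 6 lower targets were Notum, at 50 and 36 against 109 and 141, and Sp5, at 24 and 11 against 59 and 57 (limma, adjusted p = 0.0553 and 0.0981). The 1 higher was Kremen1, at 1493 and 1271 against 966 and 1042 (limma, adjusted p = 0.177). In 6 tested genes of the ligase family that shares the protease-associated domain and RING finger of ZNRF3 and RNF43, none was called or reached an unadjusted p under 0.05 (limma), and the median was 0.08. The smallest p was that of Rnf13, at 2598 and 3171 against 2353 and 2123 (adjusted p = 0.277). Like Rspo2, the calls of Wnt5a, Wnt7a and Wif1 were lost without mutant replicate 2 (limma, adjusted p = 0.0966 for each), without either wild-type lung, without the variance trend and with no filter on low values. Other settings gave more calls, among them a fit with 1 mutant lung, whose variance came from the wild-type lungs alone. Without mutant replicate 1, a fit that called 12.9% of all tested genes, 6 beta-catenin targets were lower and 1 higher, 4 WNT ligand genes were lower, and 2 WNT receptor genes were lower and 1 higher. In that fit 2 of the partner genes were lower and 1 of the Dishevelled and ligase regulator genes was higher. With the replicate block 3 beta-catenin targets and 3 WNT ligand genes were lower.

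**Figure D5:**
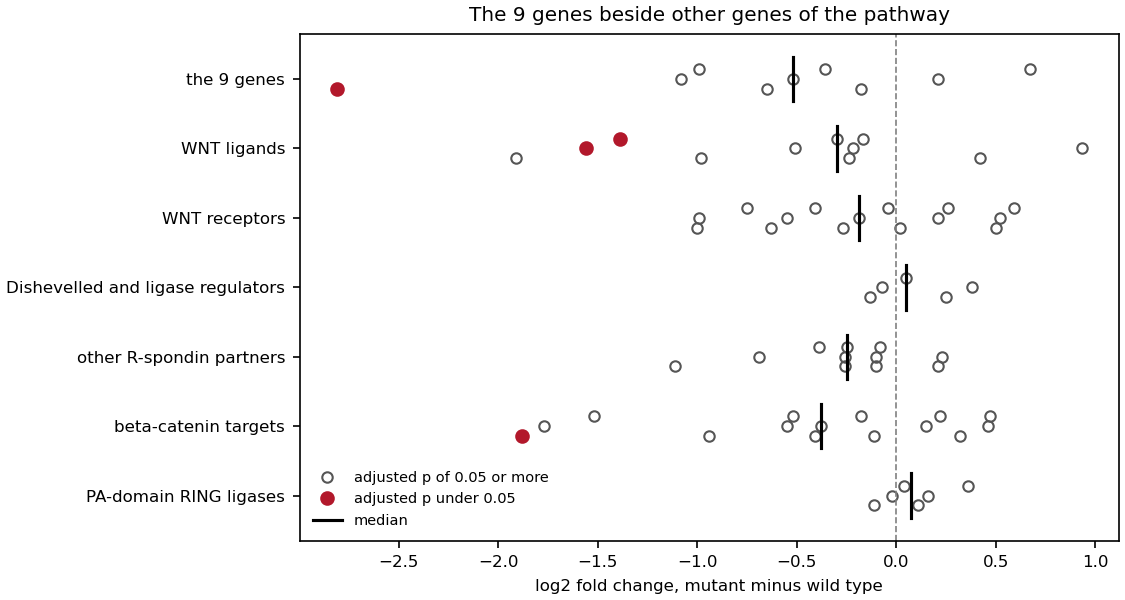
Log2 fold change, mutant minus wild type (horizontal axis), of the 9 genes and of the tested members of 6 lists of pathway genes, with filled points for an adjusted p under 0.05 and bars for list medians. Filled points are Rspo2, Wnt5a, Wnt7a and Wif1, all below 0.

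The genes whose pattern over the 4 lungs was most like that of Rspo2 were found among 12796 other protein-coding genes with a mean of at least 50, by the root mean square difference of their log2 deviations from their own mean. Itgax, an integrin gene of macrophages and dendritic cells, was nearest at 0.044, with 28 and 9 normalized counts against 116 and 118. Adra1b, an adrenergic receptor gene (0.123), Meox2, a mesenchymal homeobox gene (0.181), and the adaptor gene Cass4 (0.239) followed. Each had mutant replicate 2 lowest, mutant replicate 1 next and both wild-type lungs far above. With 4 lungs this likeness is a description only.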

How the data were processed

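Libraries were made with a stranded poly(A) mRNA kit from 3 micrograms of total RNA, per the labels' protocols. Per the submitters' processing notes the tools were FastQC, STAR 2.4.0a, featureCounts 1.5.1 (Subread) and DESeq2 1.14.1, with builds mm10 and GRCm38. The authors deposited whole numbers under the name of normalized counts, handled here as a score. Their scaling, the strand setting and the handling of multi-mapping reads were not given in the sources used here. No gene had a value of 3, 10 or 17 in mutant replicate 2, so values are scaled and rounded counts, and no count model was run. A value under about 20 rests on few reads.

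Fold changes are mutant minus wild type from limma 3.58.1 (R 4.3.3) on log2(value + 1), a scale that understates changes of low genes. The fit was tested on simulated data with the same dispersion in all libraries. The mutant lungs here were less alike than the wild-type lungs, so that run does not show how the fit behaves on them. Prior degrees of freedom were 4.07. Exon lengths, overlaps and 50-base sequences came from GENCODE M21 (GRCm38), coordinates from the deposited table, and upstream windows from RefSeq. Python 3.11.15 with pandas 2.3.3, numpy 2.4.6 and matplotlib 3.10.9 was used for the rest. The members, gene lists, tests and alternatives were chosen with earlier results of these data known. All 9 genes were named, with the called genes of each pathway list or otherwise the gene with the smallest p, and the 4 genes most like a called member.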

Additional observations from a re-analysis of the deposited data

How the results depend on the processing

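The count of called genes depended on single lungs and on the variance model. Against 440 called genes (271 higher, 169 lower, 1 of the 9), limma gave 0 with no filter on low values (4876 genes at an unadjusted p under 0.05, 4 of the 9) and 72 without the variance trend (46 higher, 26 lower, 0 of the 9, with 5 of the 9 at an unadjusted p under 0.05). With each lung left out the count ran from 0 to 2385 (0 to 1199 higher, 0 to 1186 lower, 0 to 2 of the 9). It was 2385 without mutant replicate 1 and 0 without mutant replicate 2 (5249 at an unadjusted p under 0.05), wild-type replicate 1 (917) or wild-type replicate 2 (1133). After quantile normalization 424 genes were called and 0 of the 9. Other pseudocounts, a mean of at least 50 and scaling to library totals gave 412 to 451 genes and 1 of the 9. The replicate block, with the replicate number as a term, gave 766 called genes (437 higher, 329 lower) and 1 of the 9. The numbers mark no shared litter or day in the labels, and the deviations of same-numbered libraries had a correlation of -0.058 over genes. Rspo1 reversed to 0.25 without mutant replicate 1, and Rspo4 and Lgr5 reversed to 0.10 and 0.51 without mutant replicate 2. Leave-one-out log2 fold changes ran from -0.61 to 0.25 for Rspo1, -1.14 to 0.10 for Rspo4 and -1.24 to 0.51 for Lgr5. By the longest transcript the wild-type share of Rspo1 in the summed R-spondin level moved from 79.0% to 76.1%. The cause of these changes was not tested.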
